A study of Mus musculus with 4 samples.

Results

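Of the 24499 genes in the expression table, 53 are described here, all of them genes of mitosis and the spindle, taken by name as the rows whose symbol matched the list. They were followed in wild-type mouse GPLC cells (growth plate-like chondrocytes) over 10 days of culture. Every row was found, and all 53 genes had a mean of at least 1 CPM (the authors' scaled read count per 1000000 reads), the level that 12109 genes of the table reached. RNA was taken on days 1, 3, 5 and 10, and the aim stated for the series is to set these time points against each other. Cells of each day were unmodified and grew in the same medium, DMEM with 10% fetal bovine serum, 50 ug/mL ascorbic acid, insulin, transferrin and selenium, and the RNA came from sorted cells. The sources used here do not give what the sort selected, whether the medium changed during the course or how the cells were derived. Cells of a single culture system were used, so the values describe these cells and not a growth plate.

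Mitosis separates the copied chromosomes of a cell. Cyclin-dependent kinase 1 with cyclin A and cyclin B drives entry, condensin compacts the chromosomes, and microtubules and kinesin motors build a spindle that attaches to kinetochores on the centromeres. The spindle checkpoint holds back the anaphase-promoting complex (APC/C) until all kinetochores are attached, after which the spindle midzone and an actin ring divide the cell. Most of these genes are transcribed late in the cell cycle, in G2 and M phase, so their RNA is used as a sign of dividing cells. In growth plate cartilage the flat proliferating chondrocytes divide in columns and stop dividing when they become hypertrophic.

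Many promoters active in G2 and M phase carry a cell cycle homology region (CHR) and CCAAT boxes, and the stretches below show them in genes of this set. RefSeq windows of 300 bases on GRCm38.p6, from 250 bases before to 50 after an annotated start, were held for 43 of the 53 genes. A CHR was searched as TTTGAA and also, with the same weight, as TTTAAA. Either strand was searched, and the motifs were allowed to overlap. A CHR stood in the windows of 37 of the 43 genes (86.0%), against 22.02% of the 9256 genes with a window that passed the same expression filter and 30.6% of all 27025 genes with a window. CCAAT stood in 31 of 43 (72.1%, against 43.5% and 41.1%), and both motifs in 30 of 43 (69.8%, against 9.30% and 12.2%). An E2F motif, searched as TTTCCCGC and also as TTTGGCGC, stood in 3 of 43 (6.98%, against 3.53% and 1.80%). These are matches of letters and not measured binding, and their part in the changes described below was not tested. The 4 windows shown hold both motifs and belong to the genes with the lowest differences between day 10 and day 1 among the windows that could be shown. Each is given 5′ to 3′ on the strand of the gene, 270 bases from 250 before the start to 20 after it, and the capitals mark CHR and CCAAT in either direction. A CCAAT box on the other strand reads ATTGG, and a CHR there reads TTCAAA.
Ube2c chr2:164769679-164769948, plus strand: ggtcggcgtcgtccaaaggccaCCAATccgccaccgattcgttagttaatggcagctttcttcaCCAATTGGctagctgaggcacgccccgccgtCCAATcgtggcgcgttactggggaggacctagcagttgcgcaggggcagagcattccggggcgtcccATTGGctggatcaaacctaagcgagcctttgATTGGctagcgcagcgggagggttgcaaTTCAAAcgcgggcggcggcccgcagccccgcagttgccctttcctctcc
Cdc20 chr4:118437324-118437593, minus strand: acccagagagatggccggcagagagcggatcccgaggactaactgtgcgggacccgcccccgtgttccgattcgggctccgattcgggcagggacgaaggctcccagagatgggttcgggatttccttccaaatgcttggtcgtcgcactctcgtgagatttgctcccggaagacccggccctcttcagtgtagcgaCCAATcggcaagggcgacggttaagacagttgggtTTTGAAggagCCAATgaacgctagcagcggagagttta
Ect2 chr3:27153835-27154104, minus strand: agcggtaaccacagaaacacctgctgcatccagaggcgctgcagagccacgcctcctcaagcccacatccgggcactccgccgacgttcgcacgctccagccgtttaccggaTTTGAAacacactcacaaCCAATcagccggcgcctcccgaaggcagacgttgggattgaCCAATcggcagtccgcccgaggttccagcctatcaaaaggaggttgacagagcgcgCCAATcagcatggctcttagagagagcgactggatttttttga
Ncapg chr5:45669675-45669944, plus strand: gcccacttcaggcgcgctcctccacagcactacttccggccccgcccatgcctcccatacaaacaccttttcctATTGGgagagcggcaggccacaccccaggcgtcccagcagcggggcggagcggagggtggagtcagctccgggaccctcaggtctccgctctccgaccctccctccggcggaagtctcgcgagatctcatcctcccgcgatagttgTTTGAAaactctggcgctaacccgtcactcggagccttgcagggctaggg
Counted from the start, the CHR marked began at base -29 in Ube2c, -18 in Cdc20, -138 in Ect2 and -30 in Ncapg. In Ect2 a further CHR began at base 16 and ran past the end of the stretch shown, so it is not marked. Ect2 had 2 windows, and the other is not shown. Ube2c held 6 CCAAT boxes, Ect2 held 3, Cdc20 held 2 and Ncapg held 1. The 6 genes without a CHR in their window were Melk, Bub1, Mad2l1, Nuf2, Nusap1 and Ncaph. Their median log2 difference between day 10 and day 1 was -1.93, and that of the 37 genes with a CHR was -1.90.

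The table holds 15 libraries, 3 for day 1 (numbered 1, 3 and 4) and 4 for each later day, while the labels list 1 sample a day. What the numbers stand for is not given, so p-values measure the spread among libraries, which could be technical replicates. Libraries held 12492537 to 18841621 reads in genes. Genes at exactly 1 read numbered 270 in library 2 of day 5 and 391 in library 3 of day 10, against 704 to 992 in the others. Library 2 of day 5 also had the fewest genes with reads, 14145. The part of this in the levels of these libraries was not tested. Libraries 3 and 4 were the closest pair on days 1, 3 and 5. Per gene, the chi-square of their reads averaged 6.27, 5.22 and 15.1 on these days over all genes with 50 reads or more in the pair, against 22.2 for the closest and 221 for the most distant of the other pairs, and against 1 for sampling noise alone. On day 10 their value was 122, and library pair 1 and 3 was closer. Libraries 3 and 4 were kept as separate libraries because their reads differed by more than sampling noise. This does not show separate cultures, since repeat libraries of 1 culture could differ by more than that as well. Over the 53 genes alone the day 3 pair averaged 1.23, close to sampling noise. All 12 chondrocyte markers had reads on each day, with Matn1 under 1 CPM on day 1. Their sum lay between 4993 and 5741 CPM on day 1, between 11865 and 27949 on day 3, between 2984 and 8490 on day 5, and between 2366 and 16090 on day 10. The sum of the osteoblast and osteocyte markers lay between 7885 and 11773 CPM on day 1, between 5066 and 9956 on day 3, between 5445 and 9727 on day 5, and between 8095 and 64480 on day 10. Bglap, Ibsp, Dmp1, Phex, Sost and Mepe among them were under 1 CPM on day 1. Summed fibroblast and tendon markers gave 1903 to 2176, 3158 to 5121, 5889 to 7877 and 5874 to 11416 CPM on the 4 days in order. All 6 endothelial markers stayed under 1 CPM, the muscle markers Myod1, Myog and Ckm were at 0, and so were the macrophage markers Adgre1 and Tyrobp. Summed over their whole lists, macrophage and osteoclast markers gave 12.6 to 13.9 CPM on day 1 and 20.8 to 51.1 on day 10. Muscle markers gave 0.79 to 1.42 and 0.23 to 12.2, and adipocyte markers 55.7 to 59.3 and 72.8 to 129, on the same days. In bulk RNA, fewer dividing cells and less of these transcripts per cell cannot be told apart.

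All 53 genes were highest on day 1, lower on day 3 and lower again on day 5 by their day means, an order that 32.4% of all genes tested followed. Together they gave 9368 ± 817 CPM on day 1 (SD, n = 3), 4704 ± 1005 on day 3, 2544 ± 624 on day 5 and 2821 ± 1053 on day 10 (n = 4 each). As a share of all deposited signal this was 0.958% on day 1, 0.482% on day 3, 0.254% on day 5 and 0.274% on day 10. By means of log2(CPM + 1), the scale also used for the order above, the lowest day was day 5 for 36 genes and day 10 for 17. Cdk1, Ttk, Cdc20, Ube2c and Smc4 were among the 17, and their mean CPM was lowest on day 10 too. Ccnb2 and Cenpe were also among the 17. Their mean CPM, like that of some others, was instead lowest on day 5 (28.7 and 49.99, against 29.0 and 51.5 on day 10). The plot of all genes in all libraries shows lower values on the later days in every role group, with the day 10 libraries split.

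**Figure D1:**
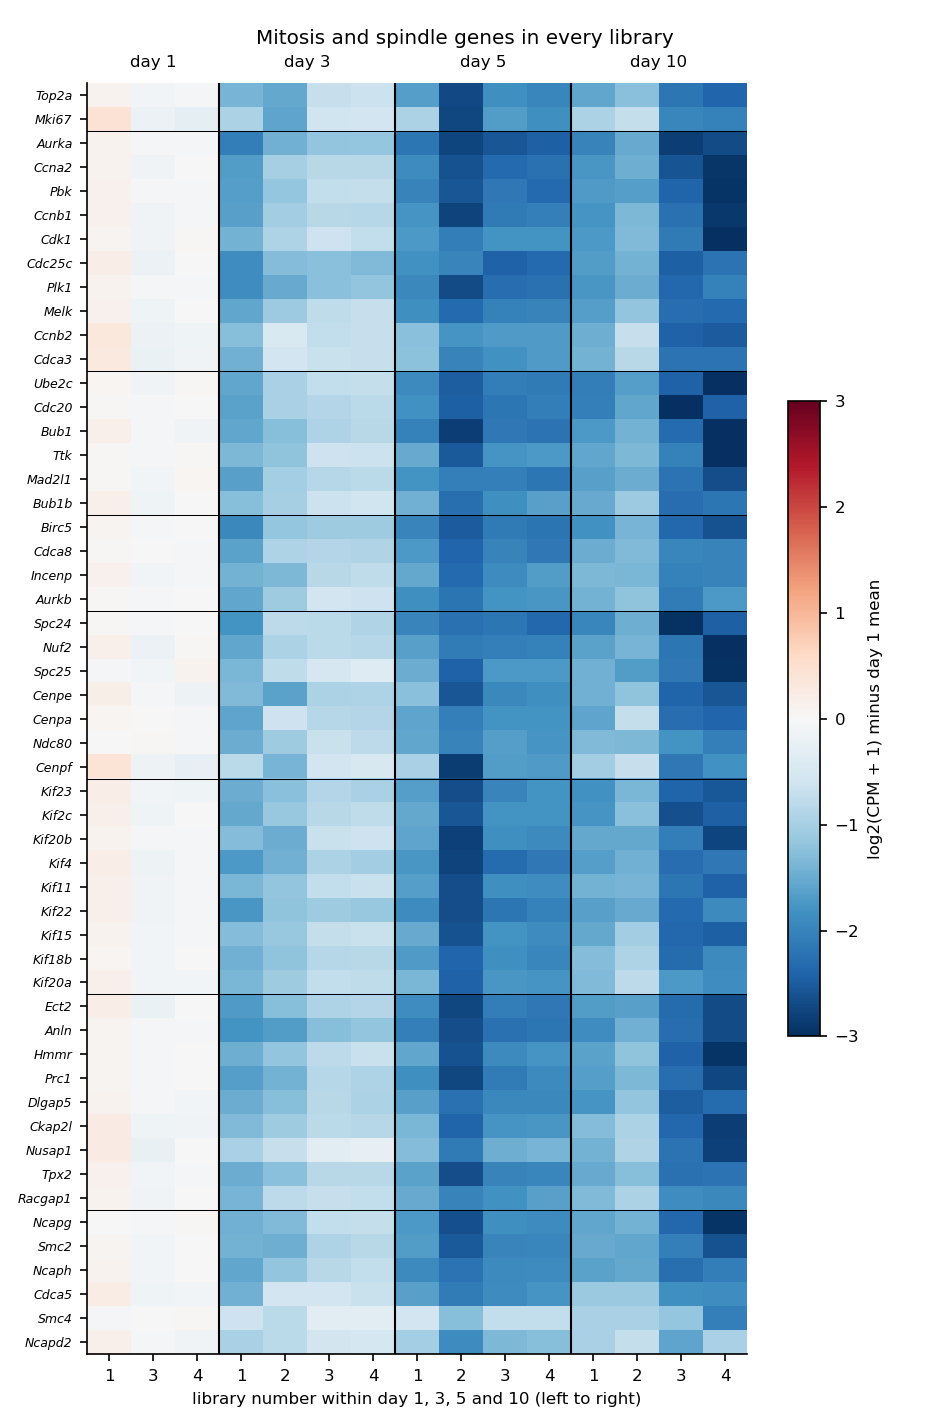
Difference of log2(CPM + 1) from the day 1 mean for each of the 53 genes (rows, grouped by role) in each of the 15 libraries (columns, by day), with blue below and red above the day 1 mean. All 12 later libraries are blue for all 53 genes, and on day 10 libraries 3 and 4 are darker than libraries 1 and 2.

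Changes between days are differences of the means of log2(CPM + 1), and a gene is said to fall or rise only where limma's test, adjusted over all 12109 genes, gave p under 0.05. On day 10 against day 1 all 53 genes fell, where 25.1% of all genes were called lower. On day 5 against day 1 all 53 fell as well (24.8% of all genes), and on day 3 against day 1 46 fell (16.1%). No gene of the set rose in any comparison (24.3% of all genes did for day 10). On day 10 against day 1, 6 of 7 fibroblast and tendon markers and 5 of 8 osteoblast and osteocyte markers that reached the filter rose, and 3 of 12 chondrocyte markers rose and 3 fell. Of 4 adipocyte markers past the filter 2 rose and 1 fell. Ctsk, 1 of 2 macrophage and osteoclast markers past it, rose, and so did Acta1, the 1 muscle marker past it. The part of such other cell types in the fall of the mitosis genes was not tested. The median difference was -1.90 for day 10, -1.98 for day 5 and -1.06 for day 3, each against day 1, while the medians over all genes tested were -0.01, 0.01 and -0.02. In all 3 comparisons each of the 53 genes was lower in every later library than in every day 1 library, as were 27.3%, 30.1% and 26.4% of all genes for days 10, 5 and 3. The comparisons share the 3 day 1 libraries and are not independent of each other. Differences ran between -2.38 (Ube2c) and -1.07 (Ncapd2) for day 10, and between -2.48 (Aurka) and -0.84 (Smc4) for day 5. For day 3 they ran between -1.48 (Anln) and -0.53 (Smc4), and Mki67, Ccnb2, Ttk, Cenpf, Spc25, Nusap1 and Smc4 did not pass. Leaving out any single library kept 53 calls for days 5 and 10. For day 3 the count was 28 without library 1 of day 1, and 33 to 49 without any other single library. It was 13 without the libraries numbered 1 and 25 without those numbered 3. Calls over all genes also dropped, from 1951 lower to 1331 without library 1 of day 1, 705 without number 1 and 724 without number 3.

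**Figure D2:**
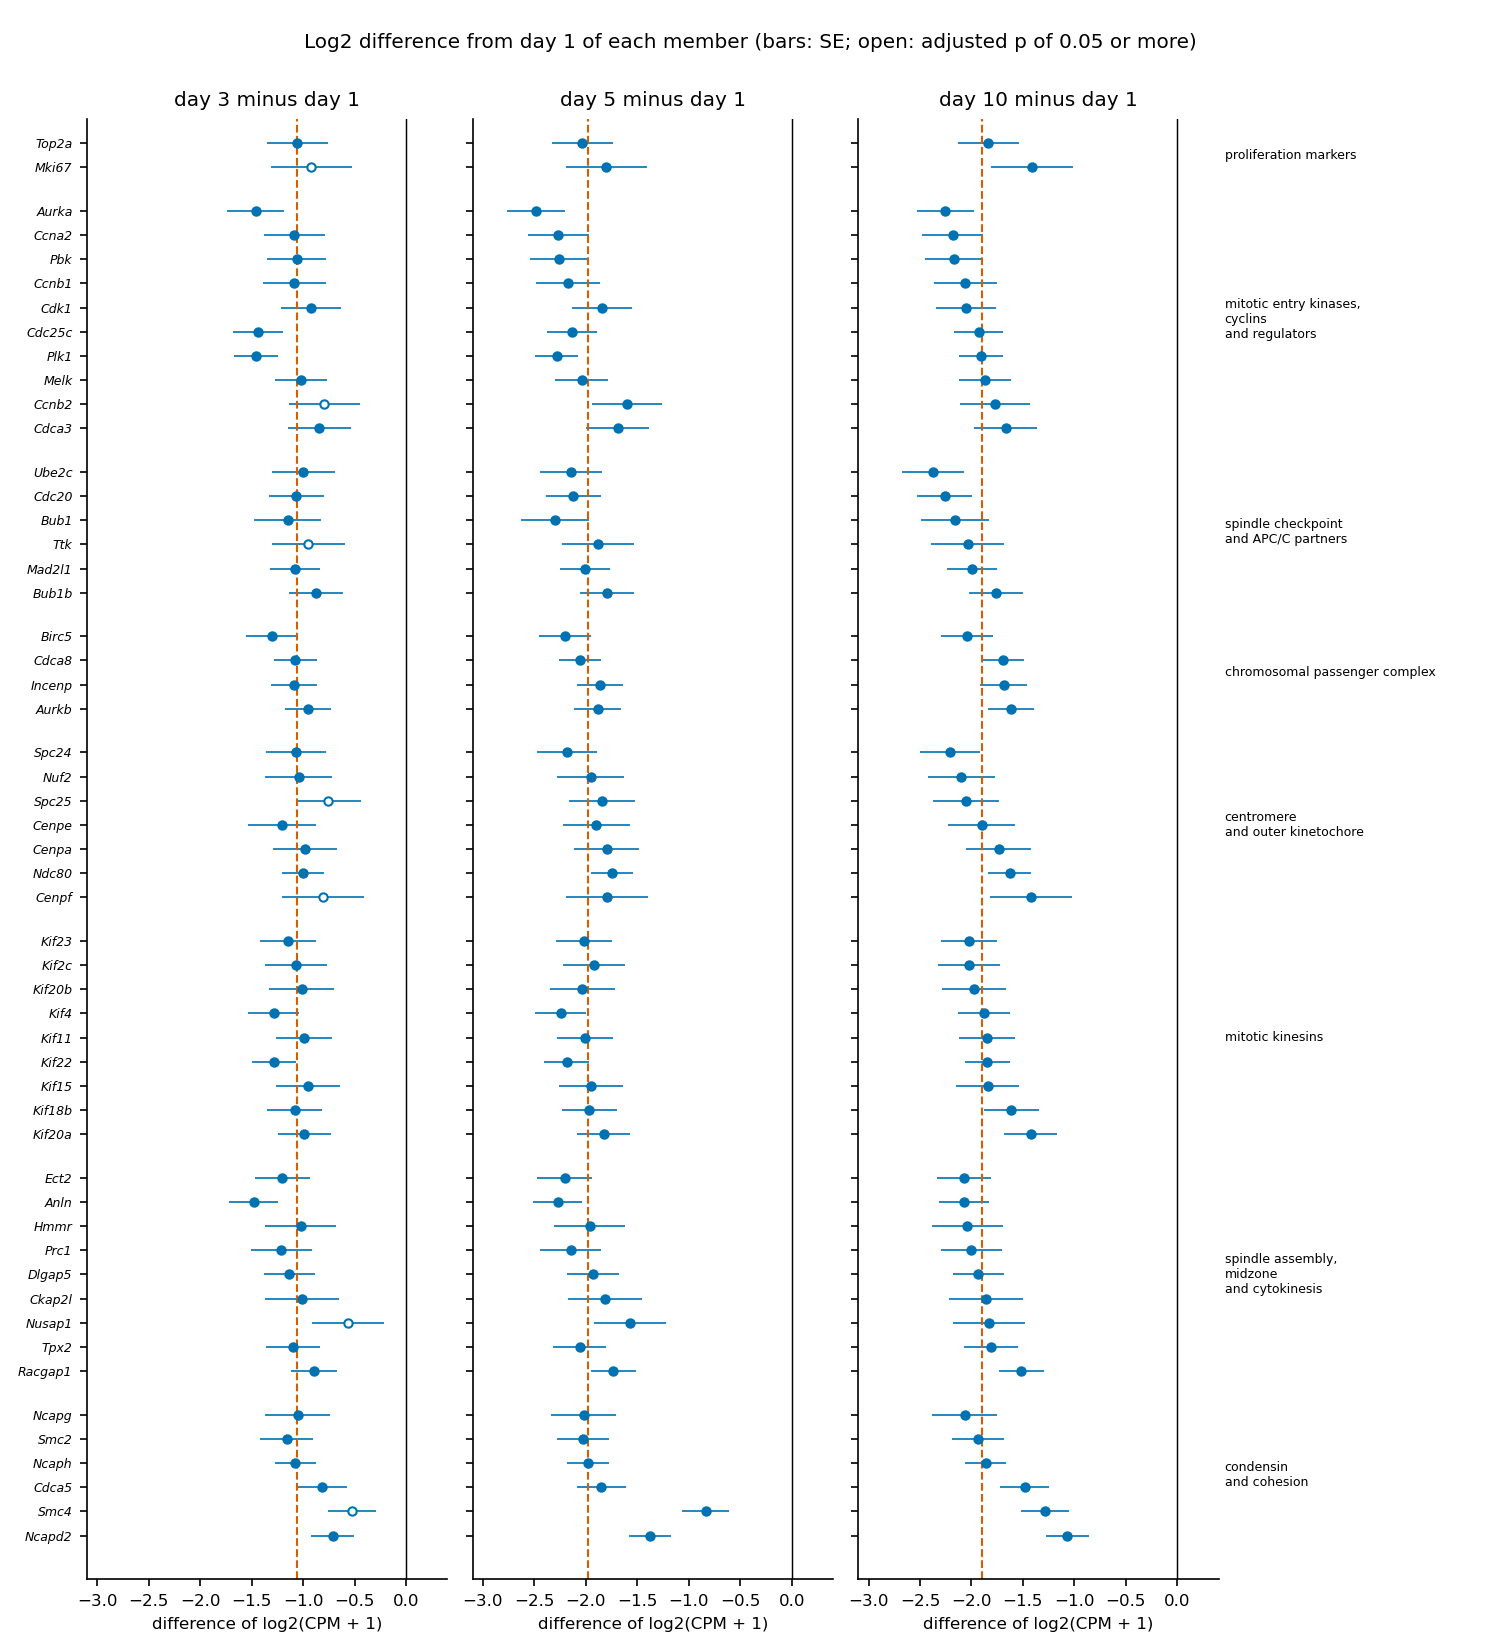
Difference of log2(CPM + 1) from day 1 on day 3, day 5 and day 10 for each of the 53 genes, with bars for the standard error, filled points for an adjusted p under 0.05 and a dashed line at the median of the set. Differences centre on -1.06, -1.98 and -1.90, and the gene nearest to 0 is Smc4 on day 3 and day 5 and Ncapd2 on day 10.

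Day 5 against day 3 gave 38 genes that fell, with a median of -0.93, where 4.03% of all genes were called lower and the median over all genes was 0.02. In 44 genes every day 5 library was below every day 3 library (9.04% of all genes). Another 15 did not pass, among them Mki67, Ccnb2, Cdc25c, Cenpe, Cenpf and Smc4. This count rested on a few libraries. It was 3 without library 3 or without library 4 of day 3, the pair that agreed almost within sampling noise, 6 without library 2 of day 5, and 12 or 13 without library 3 or 4 of day 5. It was 0 when libraries 3 and 4 were averaged and counted once, or when the libraries numbered 3 or those numbered 4 were left out. The median lay between -1.08 and -0.76 over all single libraries left out. Calls over all genes dropped as well. From 488 lower they went to 115 and 110 without library 3 and library 4 of day 3. They went to 2 with libraries 3 and 4 averaged, 1 without number 3 and 6 without number 4. Within the libraries numbered 1 the median difference was -0.15, with 46 genes lower and Ccnb2, Cdc25c, Cdca3, Cenpe, Kif2c, Kif20a and Smc4 higher. Within those numbered 2, 3 and 4 it was -1.33, -1.12 and -1.12, with all 53 lower in each.

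Between day 10 and day 5 no gene of the set passed the test in either direction, by limma, edgeR or DESeq2, and none had an unadjusted p under 0.05. Of all genes, 2.02% were called lower and 3.75% higher. The median difference was 0.11, with 36 genes above 0 and 17 below, between -0.45 for Smc4 and 0.40 for Kif20a. Libraries of the same number went opposite ways. In those numbered 2 all 53 genes were higher on day 10 (median 1.17), in those numbered 1 37 were higher (0.08), in those numbered 3 49 were lower (-0.27) and in those numbered 4 45 were lower (-0.53). With libraries 3 and 4 alone, 15 genes fell between the days and the median was -0.44. In that fit 541 of all 12109 genes were called lower and 915 higher. With libraries 1 and 2 alone the median was 0.64. That fit held 1 library of day 1, so its calls are not counted.

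Set against day 3, day 10 gave 38 genes that fell (median -0.80, against -0.01 over all genes), where 9.65% of all genes were called lower. In 7 genes, Ttk, Ube2c, Spc25, Kif11, Kif20b, Smc2 and Smc4, every day 10 library was below every day 3 library (9.55% of all genes), so for most of the set the days overlapped. The count was 10 without library 3 or library 4 of day 3, 13 and 12 without library 3 and library 4 of day 10, and 0 and 1 without all libraries numbered 3 and all those numbered 4. Averaging libraries 3 and 4 left 1. Of all genes, 1169 were called lower with all libraries and 229 without those numbered 3. Without library 3 or 4 of day 3 the number was 616 or 546, and without library 3 or 4 of day 10 it was 1123 or 910. Within library numbers the median was -0.05 for number 1, -0.12 for number 2, -1.43 for number 3 and -1.63 for number 4. The difference between day 10 and day 3 thus came with libraries 3 and 4 and was near 0 with libraries 1 and 2.

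**Figure D3:**
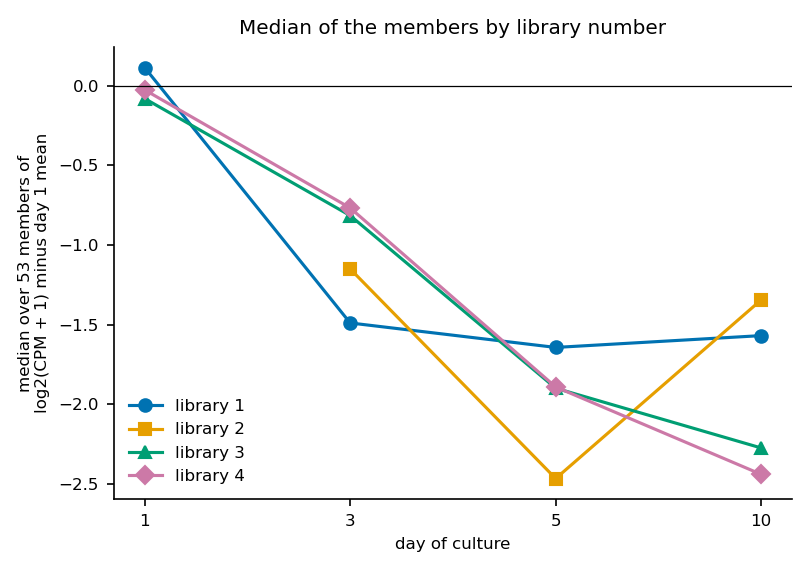
Median over the 53 genes of log2(CPM + 1) minus the day 1 mean (vertical axis) by day of culture (horizontal axis, evenly spaced), with a line for each library number. On day 10 libraries 1 and 2 stand at -1.57 and -1.34, libraries 3 and 4 at -2.27 and -2.44.

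The libraries that were high or low were nearly the same for most genes of the set. On day 10 library 2 was the highest for 48 genes and library 4 the lowest for 35, and their sums were 4062 and 1833 CPM, with 3319 in library 1 and 2070 in library 3. Day 5 had library 1 highest for 51 genes (3254 CPM in sum) and library 2 lowest for 50 (1733), with 2582 in library 3 and 2607 in library 4. For day 3 library 1 was the lowest for 46 (3578), against 4135, 5509 and 5594 CPM in libraries 2, 3 and 4. Day 1 had library 1 highest for 47 (10302), against 8785 and 9017 in libraries 3 and 4. The ratio of the highest to the lowest library of a day had a median over the genes of 1.15 on day 1, 1.74 on day 3, 1.75 on day 5 and 2.49 on day 10. Cell type markers also differed between these libraries, with no single direction. Library 2 of day 10 had the highest summed osteoblast markers of any library (64480 CPM, against 8095 to 20284 in the other day 10 libraries) and the lowest chondrocyte markers of that day (2366), while library 4 had the highest chondrocyte markers (16090) and the highest fibroblast and tendon markers (11416). Library 1 of day 3 had the most chondrocyte marker signal of any library (27949), and on day 5 library 1 was highest and library 2 lowest in it (8490 and 2984), as they were for most of the 53 genes. On day 1 library 1 also had the most chondrocyte signal (5741) and was the highest for 47 genes. On days 3 and 10, in contrast, the library with the most chondrocyte signal was the lowest for most of the genes. Their part in the differences between libraries was not tested.

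The 2 general proliferation markers fell on days 5 and 10, with values in order of library number throughout. Mki67 (ENSMUSG00000031004.8, chr7:135689784-135716361, minus strand), which encodes the Ki-67 protein that coats mitotic chromosomes, had 919, 607 and 570.3 CPM on day 1 and 352, 229, 453 and 460.2 on day 3. On day 5 it had 351, 102, 212 and 189 CPM and on day 10 352, 415, 176 and 166. Library 1 of day 1 stood well above the other 2, and the ranges of days 3, 5 and 10 overlapped. Its log2 difference was -1.41 ± 0.39 (SE) on day 10 against day 1 (adjusted p = 0.00808) and -1.80 ± 0.39 on day 5 (adjusted p = 0.00157). Top2a (ENSMUSG00000020914.17, chr11:98992943-99024189, minus strand), the topoisomerase II that untangles sister chromatids, had 889, 780.2 and 799 CPM on day 1 and 314, 285, 509 and 529 on day 3. It had 262, 125, 227 and 212 CPM on day 5 and 277, 345, 182 and 158 on day 10. Day 5 lay wholly below day 3, and day 10 overlapped both. The difference was -1.84 ± 0.30 for day 10 (adjusted p = 0.000144) and -2.04 ± 0.30 for day 5 against day 1 (adjusted p = 6.02e-05).

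**Figure D4:**
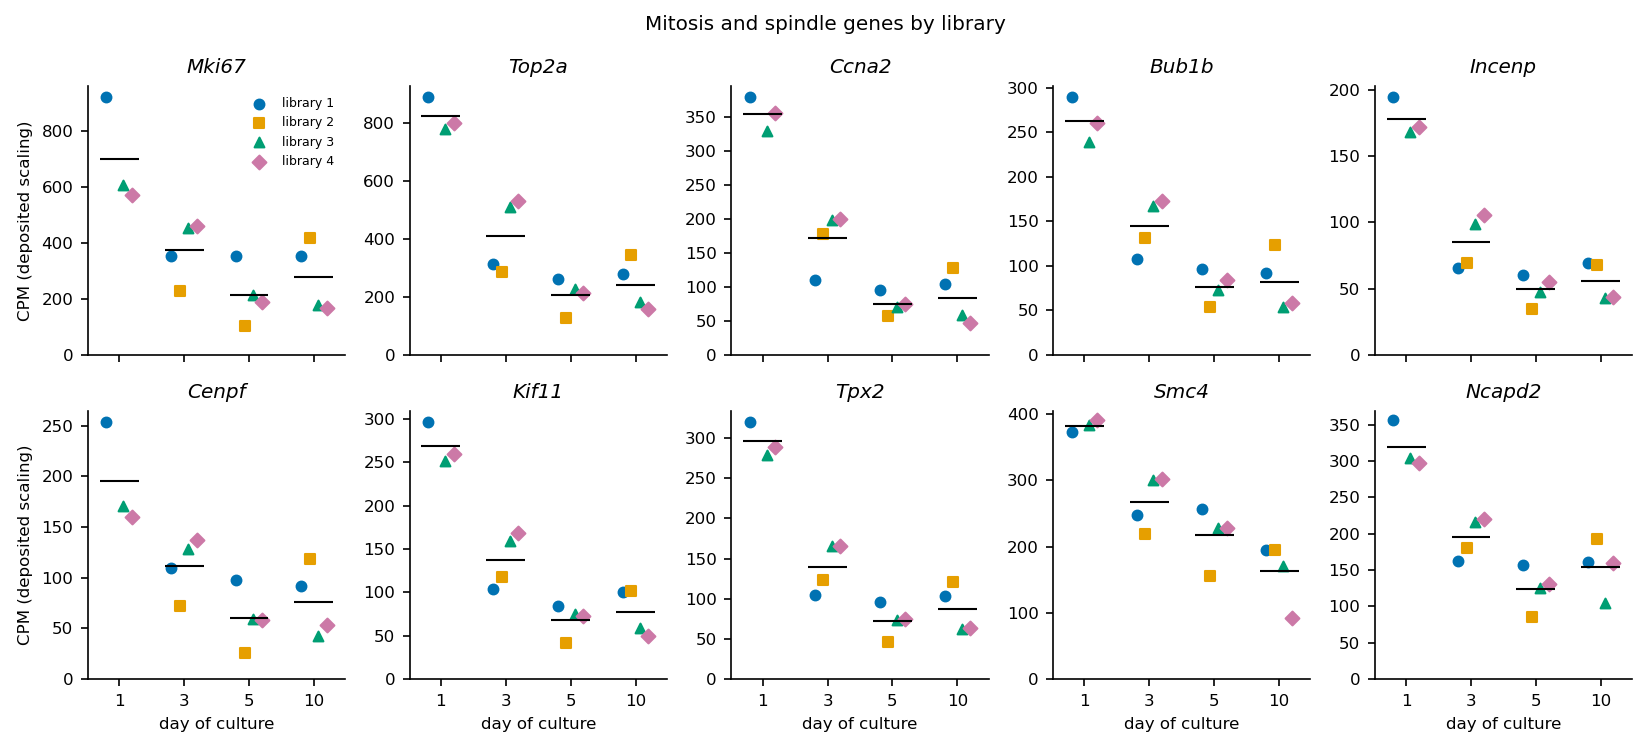
CPM of 10 of the 53 genes (panels) by day of culture, with a point for each library and a line at the day mean. All later points lie below all day 1 points in each panel, and on day 10 libraries 1 and 2 lie above libraries 3 and 4 in most panels.

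The 10 kinases, cyclins and regulators of mitotic entry all fell on day 10 and on day 5 against day 1 (medians -1.99 and -2.15), and 9 of them fell on day 3 (median -1.08). Cdk1, the kinase that starts mitosis, averaged 85.8 ± 38.6 CPM on day 10 and 329 ± 21.4 CPM on day 1 (SD, n = 4 and 3, as for all means here). Its partner Ccnb1 (cyclin B1) averaged 30.6 ± 13.5 CPM on day 10 and 121 ± 10.44 CPM on day 1. Ccna2 (ENSMUSG00000027715.9, chr3:36564865-36572150, minus strand), cyclin A2, had the highest mean of the group, with 379, 329 and 357 CPM on day 1 and 109, 177, 198 and 200.1 on day 3. Its later values were 94.6, 56.9, 69.9 and 74.6 CPM on day 5 and 104, 127, 58.3 and 46.1 on day 10. Day 5 was below day 3 in all libraries, and library 2 of day 10 reached above library 1 of day 3. Its difference between day 10 and day 1 was -2.18 ± 0.30 (adjusted p = 3.47e-05).
Aurka (ENSMUSG00000027496.15, chr2:172356190-172370535, minus strand), the Aurora A kinase of the spindle poles, had the largest fall of the group, with 122, 109 and 108 CPM on day 1 and 26.1, 40.8, 49.0 and 50.4 on day 3. On day 5 it had 24.4, 15.8, 18.2 and 19.9 CPM and on day 10 27.4, 39.2, 15.2 and 16.6. The lowest value was in library 3 of day 10, and library 2 of that day lay among the day 3 values. The difference was -2.25 ± 0.28 for day 10 (adjusted p = 1.6e-05) and -2.48 ± 0.28 for day 5 against day 1 (adjusted p = 6.91e-06). Cdca3 (ENSMUSG00000023505.13, chr6:124829547-124833701, plus strand), a trigger of mitotic entry, had the smallest, with 143, 102 and 109 CPM on day 1 and 42.4, 78.2, 73.5 and 71.9 on day 3. It had 49.3, 28.3, 32.5 and 35.1 CPM on day 5 and 43.2, 65.1, 24.4 and 24.5 on day 10. Library 1 of day 5 was above library 1 of day 3, so those days overlapped. Its difference was -1.67 ± 0.31 on day 10 against day 1 (adjusted p = 0.000407). Plk1 (polo-like kinase 1), Pbk and Melk (mitotic kinases), Cdc25c (a phosphatase that activates Cdk1) and Ccnb2 (cyclin B2) fell between these, by 1.91, 2.17, 1.87, 1.93 and 1.77 on the log2 scale.

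All 6 genes of the spindle checkpoint and of the partners of the APC/C fell on day 10 and on day 5 (medians -2.10 and -2.07), and 5 fell on day 3 (median -1.03). Bub1b (ENSMUSG00000040084.9, chr2:118598211-118641591, plus strand), the checkpoint protein BubR1, had the highest mean and the smallest fall, with 290.2, 239 and 260.2 CPM on day 1 and 107, 131, 167 and 173 on day 3. The values were 95.7, 53.5, 72.6 and 83.5 CPM on day 5 and 92.1, 123, 53.5 and 57.7 on day 10. Day 5 lay below day 3 throughout, and library 2 of day 10 overlapped day 3. The difference between day 10 and day 1 was -1.76 ± 0.26 (adjusted p = 7.62e-05). Ube2c (ENSMUSG00000001403.13, chr2:164769898-164778822, plus strand), the ubiquitin-conjugating enzyme that works with the APC/C and the first of the promoters printed, had 211, 189.7 and 209 CPM on day 1 and 68.6, 102, 120.3 and 124 on day 3. It had 53.4, 35.9, 47.2 and 45.9 CPM on day 5 and 47.7, 64.3, 37.2 and 18.6 on day 10. Every day 10 library was below every day 3 library, and library 4 of day 10 was the lowest of all. Its difference of -2.38 ± 0.30 (adjusted p = 2.06e-05) was the lowest of the 53 genes on day 10. Cdc20, the activator that starts APC/C activity in mitosis, averaged 63.8 ± 26.3 CPM on day 10 and 290.3 ± 6.35 CPM on day 1 (log2 -2.26). Bub1, Ttk (the checkpoint kinase Mps1) and Mad2l1 (Mad2) fell by 2.16, 2.04 and 1.99 on the log2 scale.

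The chromosomal passenger complex corrects wrong attachments of chromosomes and later sits at the midzone. Its 4 subunit genes all fell on days 3, 5 and 10 (medians -1.08, -1.97 and -1.69). Incenp (ENSMUSG00000024660.9, chr19:9872296-9899551, minus strand), the scaffold, had 195, 169 and 172 CPM on day 1 and 65.6, 69.2, 99.1 and 106 on day 3. On day 5 the values were 60.5, 34.6, 47.3 and 54.8 CPM, and on day 10 69.5, 68.1, 42.8 and 43.8. Libraries 1 and 2 of day 10 stood at the level of libraries 1 and 2 of day 3. Its difference between day 10 and day 1 was -1.69 ± 0.22 (adjusted p = 2.74e-05). Birc5 (ENSMUSG00000017716.15, chr11:117849251-117855743, plus strand), survivin, had 128, 118 and 120.1 CPM on day 1 and 31.4, 54.4, 57.3 and 57.3 on day 3. It had 30.1, 20.9, 27.1 and 25.8 CPM on day 5 and 33.7, 45.5, 23.1 and 19.2 on day 10. Library 1 of day 3 was far below the other libraries of its day and close to day 5. The difference was -2.04 ± 0.25 (adjusted p = 1.55e-05), the largest fall of the complex. Aurkb (ENSMUSG00000020897.12, chr11:69045647-69051664, plus strand), its Aurora B kinase, had 109, 104 and 106 CPM on day 1 and 35.6, 50.2, 70.7 and 68.8 on day 3. The later values were 29.2, 22.6, 30.1 and 31.2 CPM on day 5 and 39.3, 45.3, 23.9 and 31.3 on day 10. In this gene library 3, not library 4, was the lowest of day 10. Aurkb had the smallest fall of the complex, -1.62 ± 0.23 (adjusted p = 4.63e-05), next to -1.70 for Cdca8 (borealin).

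All 7 genes of the centromere and outer kinetochore fell on day 10 and on day 5 (medians -1.90 and -1.84), and 5 fell on day 3 (median -0.999). Cenpf (ENSMUSG00000026605.14, chr1:189640606-189688086, minus strand), a large protein of the outer kinetochore, had 254, 171 and 160.3 CPM on day 1 and 109, 71.8, 129 and 137 on day 3. It had 97.4, 25.6, 59.0 and 58.4 CPM on day 5 and 92.3, 118, 42.1 and 53.2 on day 10. As for Mki67, library 1 was well above the others on day 1, and library 2 was the lowest on days 3 and 5 and the highest on day 10. Its fall between day 10 and day 1 was the smallest of the group, -1.43 ± 0.40 (adjusted p = 0.0081). Spc24 (ENSMUSG00000074476.6, chr9:21755442-21760303, minus strand), a subunit of the NDC80 complex that holds microtubules, had 83.3, 79.7 and 81.2 CPM on day 1 and 22.9, 47.0, 46.2 and 43.2 on day 3. The values were 19.99, 16.5, 17.3 and 15.0 CPM on day 5 and 20.2, 29.0, 9.52 and 14.1 on day 10. The 3 day 1 values were nearly equal, and library 3 of day 10 was the lowest. Spc24 fell most in the group, with -2.21 ± 0.29 (adjusted p = 2.62e-05). The other subunits of the NDC80 complex, Nuf2, Spc25 and Ndc80, fell by 2.10, 2.05 and 1.63. Cenpa, the histone H3 variant that marks centromeres, averaged 34.2 ± 20.5 CPM on day 10 and 104 ± 4.12 CPM on day 1 (log2 -1.74), and Cenpe, a kinesin of the kinetochore, had a difference of -1.90.

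The 9 mitotic kinesins, motors that move along or take apart microtubules, all fell on days 3, 5 and 10 (medians -1.07, -2.01 and -1.85). Kif11 (ENSMUSG00000012443.4, chr19:37376403-37421859, plus strand), the Eg5 motor that pushes the spindle poles apart, had 297, 251 and 259 CPM on day 1 and 104, 118, 159.7 and 168 on day 3. It had 84.7, 41.5, 74.5 and 72.5 CPM on day 5 and 100.2, 101.5, 59.2 and 49.3 on day 10. Days 5 and 10 both lay below day 3, day 10 only just. Its difference was -1.85 ± 0.27 (adjusted p = 6.62e-05). Kif23 (ENSMUSG00000032254.10, chr9:61915905-61946774, minus strand), the motor of the centralspindlin complex of the midzone, had 166, 135 and 131 CPM on day 1 and 50.1, 59.5, 77.1 and 73.1 on day 3. The values were 45.2, 21.8, 35.9 and 40.8 CPM on day 5 and 40.1, 54.8, 26.4 and 24.0 on day 10. Day 5 was below day 3 in all libraries, and library 2 of day 10 overlapped it. Kif23 fell most among the kinesins, with -2.03 ± 0.27 (adjusted p = 2.95e-05). Kif20a (ENSMUSG00000003779.16, chr18:34624613-34633277, plus strand), a motor that carries the passenger complex to the midzone, had 213, 180.02 and 181 CPM on day 1 and 72.6, 89.9, 113 and 112 on day 3. On day 5 it had 72.8, 34.8, 55.8 and 55.6 CPM and on day 10 75.5, 110.4, 56.6 and 51.8. Library 2 of day 10 was back at the level of libraries 3 and 4 of day 3. It fell least of the kinesins, -1.42 ± 0.26 (adjusted p = 0.00035), but 29.3% of its exon bases are shared with Cdc23 on the other strand. Cdc23 had a difference of -0.44 ± 0.12 (adjusted p = 0.0057). The other 6, Kif2c, Kif4, Kif15, Kif18b, Kif20b and Kif22, had differences between -2.03 and -1.61.

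Every one of the 9 genes of spindle assembly, midzone and cytokinesis fell on day 10 and on day 5 (medians -1.93 and -1.96), and 8 fell on day 3 (median -1.10). Tpx2 (ENSMUSG00000027469.16, chr2:152847964-152895321, plus strand), which activates Aurora A on microtubules, had 321, 279 and 288 CPM on day 1 and 105, 123, 166 and 165 on day 3. It had 95.8, 45.9, 73.0 and 75.1 CPM on day 5 and 104, 121, 61.9 and 63.1 on day 10. Day 10 had a high pair, libraries 1 and 2, and a low pair, libraries 3 and 4. The difference between day 10 and day 1 was -1.81 ± 0.26 (adjusted p = 5.44e-05). Ect2 (ENSMUSG00000027699.19, chr3:27097222-27153878, minus strand), which acts at the cleavage furrow in cytokinesis and is the third of the promoters printed, had 189, 144 and 166 CPM on day 1 and 50.05, 67.5, 86.0 and 88.9 on day 3. The later values were 44.6, 24.1, 38.3 and 36.5 CPM on day 5 and 51.2, 53.2, 32.3 and 24.9 on day 10. Libraries 1 and 2 of day 10 were at the level of library 1 of day 3. Its fall, -2.07 ± 0.27 (adjusted p = 2.08e-05), was the largest of the group. Racgap1 (ENSMUSG00000023015.14, chr15:99620496-99651656, minus strand), the partner of Kif23 in centralspindlin, had 218, 188 and 201 CPM on day 1 and 76.3, 117, 125 and 121 on day 3. It had 70.3, 49.95, 56.9 and 65.3 CPM on day 5 and 79.97, 105, 54.98 and 52.4 on day 10. Library 1 of day 3 lay apart from its day and near day 5. The fall was the smallest of the group, -1.51 ± 0.22 (adjusted p = 6.34e-05). Anln (anillin, of the contractile ring) and Prc1 (a bundler of midzone microtubules) had differences of -2.07 and -2.002, and the spindle proteins Hmmr, Dlgap5, Ckap2l and Nusap1 lay between -2.04 and -1.83.

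The 2 smallest changes of the set on day 10 were those of condensin genes. All 6 condensin and cohesion genes fell on day 10 and on day 5 (medians -1.67 and -1.92), and 5 fell on day 3 (median -0.93). Smc4 (ENSMUSG00000034349.14, chr3:69004738-69034623, plus strand), an ATPase of both condensins, had 372, 384 and 390.4 CPM on day 1 and 248, 219, 299.9 and 302 on day 3. It had 257, 156, 228 and 228 CPM on day 5 and 195, 195, 170.2 and 91.8 on day 10. Days 3 and 5 overlapped, all day 10 libraries were below all day 3 libraries, and library 4 of day 10 was the lowest of all. Its difference was -1.29 ± 0.23 on day 10 (adjusted p = 0.000339) and -0.84 ± 0.23 on day 5 against day 1 (adjusted p = 0.00741). Its partner ATPase Smc2 fell by 1.93 on day 10 and 2.03 on day 5 on the log2 scale. Ncapg (ENSMUSG00000015880.13, chr5:45669919-45700546, plus strand), a subunit of condensin I and the last of the promoters printed, had 121, 117 and 123 CPM on day 1 and 43.6, 47.4, 71.5 and 73.5 on day 3. The values were 35.6, 18.6, 32.8 and 32.1 CPM on day 5 and 40.4, 44.2, 22.7 and 14.9 on day 10. The day 1 values were close together, and day 10 ran lowest in library 4. Its difference of -2.07 ± 0.32 (adjusted p = 9.58e-05) was the lowest of the group. Ncapd2 (ENSMUSG00000038252.13, chr6:125168007-125191701, minus strand), another subunit of condensin I, had 356, 303 and 297 CPM on day 1 and 162, 179.8, 216 and 221 on day 3. It had 157, 85.6, 125 and 130.3 CPM on day 5 and 160.5, 193, 105 and 160.3 on day 10. In contrast to most of the set, libraries 1 and 4 were nearly equal on day 10, with library 3 alone low. Its fall, -1.07 ± 0.21 (adjusted p = 0.000648), was the smallest of the 53 genes on day 10, and part of its exons overlaps other genes on the same strand. Ncaph (condensin I) and Cdca5 (sororin, which protects cohesin) had differences of -1.86 and -1.48.

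Per kb of exon the genes spanned a wide range of levels. On day 1 Cdc20 was highest at 155 CPM per kb and Cdc25c lowest at 5.29, with a median of 29.5 over the set, followed after Cdc20 by Top2a (91.3), Ccna2 (86.9), Ube2c (78.1) and Smc4 (73.3). The median level was 13.7 CPM per kb on day 3, 6.91 on day 5 and 7.50 on day 10. The leading gene on day 5 was Smc4 at 41.7 CPM per kb, ahead of Cdc20 at 35.7, and on day 10 Cdc20 again led at 34.2, ahead of Smc4 at 31.3. Cdc25c was the lowest on every day, at 1.29 CPM per kb on day 10. The genes lie on 17 chromosomes, 9 of them on chromosome 2. Exon bases of 13 genes are shared with a gene on the other strand, more than 10% of them for Ccna2, Cdc25c, Ube2c, Kif4, Kif20a, Prc1 and Ncapg. The sources used here do not say whether the counting used the strand, so reads from such pairs cannot be told apart. On the same strand Ncapd2 shares 472 exon bases, 7.53% of its own, with Gm28967 and Scarna10, and Top2a shares 122, 1.35%, with Gm23451, so their values could hold reads of these genes. Ccnb1, Ccnb2, Kif4 and Kif22 have named pseudogene copies that could share their reads.

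Other genes of the same machinery and of replication, 163 genes in 10 lists, did not all fall. All 163 had a row and were tested. Of all genes tested, 25.1% were called lower on day 10 against day 1, the share to set beside the list counts below. Set against day 1, day 10 gave 25 of 25 further genes of the spindle, kinesins and cytokinesis that fell (median -1.62), from Arhgap11a at -2.18 ± 0.30 (adjusted p = 3.91e-05) to Haus2, of the augmin complex, at -0.67 ± 0.24 (adjusted p = 0.031). Haus2 did not pass without library 1 or library 4 of day 1 (adjusted p of 0.0916 and 0.0808). All 18 inner kinetochore genes fell (median -1.36), lowest in Casc5, the older symbol of Knl1, the kinetochore platform for the checkpoint, at -2.41 ± 0.42 (adjusted p = 0.000254), and highest in Cenpo at -0.54 ± 0.17 (adjusted p = 0.0154). Cenpo did not pass without library 1 or library 4 of day 1 (adjusted p of 0.0795 and 0.0663). Among genes of centromere loading, the Ska complex and further checkpoint genes 11 of 12 fell (median -1.57). Zwilch, of the kinetochore RZZ complex, had the lowest difference (-1.94 ± 0.27, adjusted p = 4.61e-05), and Mad1l1 (Mad1) did not pass at -0.37 ± 0.16 (adjusted p = 0.0673) but did without library 1 or library 4 of day 10 (adjusted p of 0.0428 and 0.0171). Of 13 further genes of mitotic entry 11 fell (median -0.99). Gtse1, a microtubule-binding protein of G2 and mitosis, led them at -2.09 ± 0.19 (adjusted p = 1.28e-06), while Ensa and Arpp19, inhibitors of the phosphatase PP2A, stood at -0.13 ± 0.09 and -0.25 ± 0.15 and did not pass (adjusted p = 0.233 and 0.174).
Of 4 genes of condensin II and shared chromosome genes 3 fell (median -0.84), from Ncapg2 at -1.54 ± 0.24 (adjusted p = 9.71e-05) to Top2b, the topoisomerase II also made by cells that do not divide, at -0.46 ± 0.13 (adjusted p = 0.00914). Ncaph2 was the highest of them, at -0.31 ± 0.15, and did not pass (adjusted p = 0.0939), except without library 2 of day 10 (adjusted p = 0.0155). Centrosome and centriole genes fell in 13 of 16 cases (median -0.67), lowest in Stil, a centriole assembly factor, at -1.95 ± 0.29 (adjusted p = 7.86e-05), with Tubgcp2, of the gamma-tubulin ring, highest at -0.21 ± 0.11 and not past the test (adjusted p = 0.134), except without library 4 of day 10 (adjusted p = 0.0248).

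The subunits of the APC/C and cohesin, which also act outside mitosis, included genes with little difference. Of 18 genes of the APC/C, its activators and some partners 10 fell between day 10 and day 1 (median -0.38), where 25.1% of all genes were called lower. Fbxo5, Ube2s and Bub3, which are neither subunits nor activators, were among those that fell. Fbxo5, the inhibitor of the APC/C in S and G2 phase, had the lowest difference, -1.92 ± 0.24 (adjusted p = 1.8e-05), and the subunit gene Anapc11 had the highest difference, 0.11 ± 0.11 (adjusted p = 0.443). Anapc2, Anapc5, Anapc7, Anapc10, Anapc13, Cdc16 and Cdc26 did not pass either. For cohesin, separase and their regulators 11 of 16 fell (median -0.64), lowest in Esco2, the acetyltransferase that ties sister chromatids in S phase, at -2.01 ± 0.36 (adjusted p = 0.000352). Separase itself (Espl1) and the shugoshin genes, listed as Sgol1 and Sgol2a, fell by 1.51, 1.89 and 1.85. The cohesin loader genes Mau2 (0.05 ± 0.11, adjusted p = 0.752, the highest of the list) and Nipbl, the cohesin genes Stag2 and Pds5b, and the securin gene Pttg1 did not pass. Of 10 tubulin genes 4 fell (median -0.46), against 25.1% of all genes. Tubb4b was lowest at -1.005 ± 0.13 (adjusted p = 2.59e-05), and Tubb3 was highest at 1.16 ± 0.91 (adjusted p = 0.304). Tuba1a and Tuba1c had differences of 0.03 and 0.00 against day 1. On day 10 against day 3, where 12.5% of all genes were called higher, they were the only genes of the 10 lists that rose, at 0.80 ± 0.22 and 0.75 ± 0.18 (adjusted p = 0.0196 and 0.00865). Tuba1a did not pass without library 3 or library 4 of day 3 (adjusted p of 0.069 and 0.0678), while Tuba1c passed without any single library. On day 10 against day 5, with 3.75% of all genes called higher, Tuba4a, Tubg1 and Cdc6 rose by 0.57, 0.42 and 0.86 (adjusted p = 0.0394, 0.0388 and 0.0347). These 3 calls were lost in 10, 10 and 8 of the 15 fits that left out 1 library, with adjusted p up to 0.106, 0.107 and 0.11. Tubulin genes resemble each other closely, so reads may be split among them.

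The 31 S phase genes, a reference for DNA replication, all fell on day 10 and on day 5 against day 1 (medians -1.14 and -1.01), where the 53 mitosis genes had medians of -1.90 and -1.98. On day 3 22 of the 31 fell (median -0.57), 11 without the libraries numbered 1 and 13 without those numbered 3. Of all genes, 25.1%, 24.8% and 16.1% were called lower on days 10, 5 and 3 against day 1 with all libraries. Rrm2, the small subunit of ribonucleotide reductase, had 71.6 ± 19.1 CPM on day 10 and 322 ± 9.49 CPM on day 1 (log2 -2.19 ± 0.19, adjusted p = 7.34e-07), the lowest difference of this list. Mcm6, of the replicative helicase, had the highest, -0.39 ± 0.13 (adjusted p = 0.0189), and did not pass without library 3 or library 4 of day 1 (adjusted p of 0.0716 and 0.0534). No list as a whole was tested, and the medians of the lists are set side by side without a test of their difference.

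**Figure D5:**
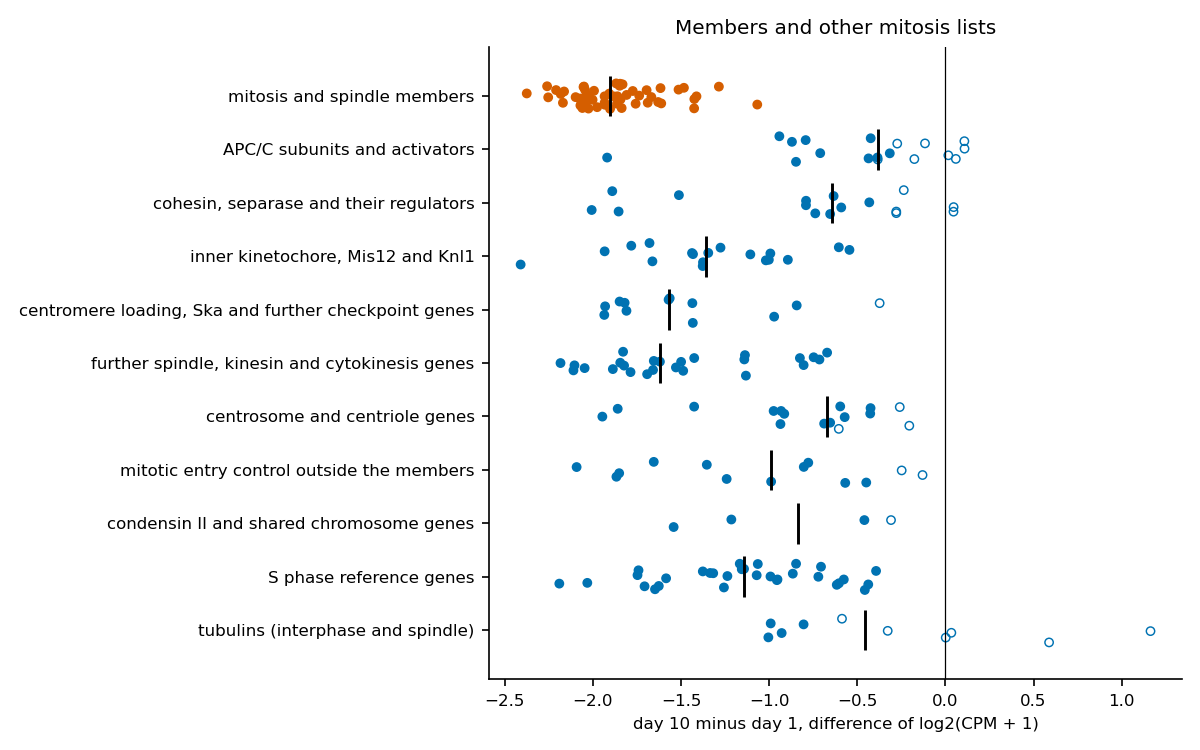
Difference of log2(CPM + 1) between day 10 and day 1 for the 53 mitosis and spindle genes (top row) and for the genes of 10 other lists (rows), with filled points for an adjusted p under 0.05 and a bar at each median. The 53 genes lie between -2.38 and -1.07, while the APC/C, cohesin and tubulin lists reach above 0.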

How the data were processed

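RNA-seq libraries of the GPLC cultures were described on days 1, 3, 5 and 10. Per the labels' protocols, total RNA of sorted cells was made into libraries with ribosomal RNA removed. The submitters' processing notes name STAR, featureCounts, edgeR and GRCm38, without versions. Neither the annotation nor the strand setting is given in the sources used here. The deposited signal of each gene is a CPM signal (read count per 1000000 reads) that the authors scaled by edgeR's TMM factors: dividing by the value of 1 read (0.0523 to 0.0787 CPM) gave whole reads for 100% of values within 0.001, and TMM-scaled CPM made from those reads differed from the column totals by at most 2.22e-14%. The 15 columns were assigned to days by their names. No symbol of the 53 genes was missing.

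The main test was limma 3.58.1 with a trended prior on log2(CPM + 1), in 1 fit over all 15 libraries, for 12109 genes with a mean over the 4 day means of at least 1 CPM. P-values were adjusted by Benjamini-Hochberg over these genes for each of 6 comparisons, and calls were made at 0.05. Fold changes on this scale understate the change of low genes. edgeR 4.0.16 (quasi-likelihood) and DESeq2 1.42.0 on the recovered reads served as alternatives: of the 53 genes, edgeR called 53 lower for day 10 and for day 5 and 46 for day 3, each against day 1. On simulated reads for day 10 against day 1 over 12109 genes with 200 changed, limma called 71% of 2-fold and 97% of 4-fold changes, and 3.45% of its calls were on unchanged genes. The simulated libraries were independent of each other. In the data far more genes were called (25.1% lower and 24.3% higher) and libraries of the same number deviated together. These rates therefore need not hold for the data.

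Genes named in full were the 2 proliferation markers and, in each other role group, the gene with the highest mean CPM and those with the lowest and highest difference between day 10 and day 1. For other lists they were the lowest and highest gene and any called against the direction of the set, and the rest served as examples chosen after their values were seen. The genes and lists were chosen with earlier results of these data known. Coordinates and exon lengths are those of GENCODE M21 on GRCm38, and promoter windows are those of RefSeq on GRCm38.p6. Other settings, libraries left out and library number as a block were tried as alternatives. Software was R 4.3.3 and Python 3.11.15.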

Additional observations from a re-analysis of the deposited data

Results flagged for a closer look

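In 3 of the 63 sets of 4 libraries examined for the named genes, the lowest library stood apart, with a gap to the next library, as a share of the range of the day, above Dixon's critical value for 4 values. Chance alone marks about 1 in 20 such sets. All 3 were library 1 of day 3. Birc5 had 31.4 CPM there (gap of 0.886 of the range), Spc24 had 22.9 CPM (0.845) and Racgap1 had 76.3 CPM (0.838). The same library was the lowest of day 3 for 46 of the 53 genes and had the highest summed chondrocyte markers of all libraries, 27949 CPM. Whether the 2 are related was not tested.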

How the results depend on the processing

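On day 10 and on day 5 against day 1, all 53 genes were called lower under every other pseudocount, filter, scaling and tool tried. With libraries left out, singly or by number, the calls numbered 51 to 53 for day 10 and 52 to 53 for day 5, with medians between -2.12 and -1.71 and between -2.10 and -1.81. For day 3 against day 1 the calls ran from 13 to 49 and the medians from -1.17 to -0.84. For day 5 against day 3 they ran from 0 to 47 (medians -1.19 to -0.76), for day 10 against day 3 from 0 to 52 (-1.07 to -0.55), and for day 10 against day 5 they were 0 throughout (-0.23 to 0.33). The medians without all libraries of 1 number were added after seeing the data. Testing all genes with any read lowered the calls for day 5 against day 3 to 20. Averaging libraries 3 and 4 gave 0 calls for day 5 against day 3 and 1 for day 10 against day 3. For day 5 against day 3, 488 of all genes were called lower in the main fit. The number was 331 with all genes that had any read and 2 with the averaging.

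Libraries 1 and 2 alone held 1 library for day 1. In that fit all 53 genes had a difference below 0 against day 1 on days 3, 5 and 10 (median -1.44 for day 3). The median was -0.10 for day 10 against day 3. Fewer libraries were in that fit. Its spread comes from the later days, so the lone day 1 library is assumed to vary like them. Its calls are therefore not counted here. Libraries 3 and 4 alone gave 15 calls for day 10 against day 5 (median -0.44), where 541 of all genes were called lower. Their median was -1.58 for day 10 against day 3. With these libraries 31 of the 53 genes had a difference of day 10 against day 5 below 0 in place of above it. Of these 31, 6 passed, Cenpa, Kif15 and the following. The difference changed sign for Ccna2 to -0.47, Cdca3 to -0.45, Bub1b to -0.48 and Kif11 to -0.44, with adjusted p of 0.0497, 0.0255, 0.0294 and 0.0415. Outside the 53 genes, that of Tubb3 between day 10 and day 1 changed sign to -1.23 (adjusted p = 0.00628). With libraries 1 and 2 alone, 15 of the 53 genes had a difference above 0 between day 10 and day 3 in place of below it. Aurka (0.0059, adjusted p = 0.998) and Prc1 were the 2 of these that had passed with all libraries. The causes were not tested.

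Calls in the other lists on day 10 against day 1 were also counted with libraries left out, singly or by number. They ran from 7 to 11 of 18 for the APC/C, 9 to 12 of 16 for cohesin and 17 to 18 of 18 for the inner kinetochore. Centromere loading gave 11 to 12 of 12, further spindle genes 22 to 25 of 25 and the centrosome 10 to 15 of 16. Mitotic entry gave 9 to 11 of 13, condensin II 2 to 4 of 4, tubulins 4 to 6 of 10 and S phase genes 27 to 31 of 31. Of all genes, 1927 to 3474 were called lower in these fits. S phase genes gave 27 to 31 calls on day 5 and 11 to 26 on day 3 against day 1. Of all genes, 1846 to 3408 and 705 to 2577 were called lower there. Libraries 1 and 2 alone are not counted here, since they hold 1 library of day 1.

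Library number as a replicate block gave 47 calls for day 3, 53 for day 5 and 53 for day 10 against day 1. It gave 34 for day 5 against day 3, 0 for day 10 against day 5 and 36 for day 10 against day 3. Of all genes, 2510, 3436, 3483, 724, 636 and 1717 were called lower with the block, in the same order. In the main fit these numbers were 1951, 2998, 3044, 488, 245 and 1169. Libraries of the same number deviated together in 17 of 21 pairs (correlation of deviations over 0.1, lowest -0.07, median 0.26), against a median of -0.09 over 63 pairs of different numbers, and a library's best match on another day was its own number in 28 of 42 cases, a hint from the data and not from the design. No scaling moved the median of all genes by more than 0.1. The fewest reads of any of the 53 genes in a library were 64, for Cdc25c.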
